A study of Bos taurus with 6 samples.

Results

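The miRNAs described here are bta-miR-191, bta-miR-425-5p, bta-miR-425-3p, bta-miR-423-5p and bta-miR-423-3p, the mature products of the miR-191/425 cluster and of the miR-423 hairpin. They were taken by name from the deposited table of miRNAs in extracellular vesicles (EVs), membrane-enclosed particles that cells release, and make up 5 of its 1028 miRNAs. In all, 341 of the 1028 miRNAs had a read in at least 1 library and 251 averaged at least 10 CPM in at least 1 group and were tested. Of the 5 members, 4 had reads and the same 4 were tested, while bta-miR-425-3p had no read in any library.

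The EVs were collected from medium conditioned by bovine oviductal organoids, self-organised cultures of oviduct epithelium grown in a gel from abattoir-derived tracts in diestrus. S-EVs were released by organoids moved to 42 °C (heat stress, HS) for the last day of culture, and N-EVs by organoids that stayed at 37 °C (thermoneutral). Each group has 3 small RNA libraries, labelled A, B and C, and each replicate was described as a pool of 2 animals. The same oviducts were represented at both temperatures. The labels do not tie a library to its animals, so the main tests treated the libraries as separate units. Their p-values measure the spread between libraries, and how far shared oviducts enter it is not known. No genetic change was made in either group, and both groups share the synthetic matrix and medium. A bulk EV library cannot tell apart fewer vesicles that carry a miRNA and less of the miRNA per vesicle.

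A primary miRNA transcript is processed to a hairpin, whose 5' and 3' arms each yield a short RNA (5p and 3p). An Argonaute protein keeps mostly one of both arms, and the arm kept pairs with target mRNAs and lowers their translation or stability. In humans miR-191 and miR-425 are made from one transcript within the DALRD3 gene, and miR-423 lies within NSRP1, a gene of a splicing protein. In cattle, the RefSeq annotation of ARS-UCD2.0 held all 3 hairpin genes. There MIR191 and MIR425 stood next to each other between NDUFAF3 and DALRD3, MIR191 overlapped MIR191B, and MIR423 lay within NSRP1. miR-191, miR-425-5p and both miR-423 arms are widely expressed, and miR-191, miR-423-5p and miR-423-3p in particular are common normalisers in RT-qPCR of miRNAs. Human miR-191 and miR-425 are often raised in carcinomas, and human miR-423-5p has been studied in blood as a marker of heart failure.

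The values are TMM-adjusted CPM (counts per 1000000 reads), where TMM is a scaling factor that equalises the bulk of miRNAs between libraries. The miRNA reads behind them were recovered from the steps between the values, and ranged from 72580 to 213877 in S-EVs and from 31640 to 150214 in N-EVs. One read was worth between 5.53 and 28.7 CPM in S-EVs and between 5.87 and 17.0 CPM in N-EVs. A single miRNA, bta-miR-1246, took 40.2%, 26.7% and 71.8% of the reads in S-EVs A, B and C, and 24.99%, 49.99% and 49.6% in N-EVs A, B and C. The 5 members held 5233 reads in all. Their share of the reads was 0.569%, 0.926% and 0.256% in S-EVs A, B and C, against 0.879%, 0.685% and 0.834% in N-EVs, and among the reads that were not bta-miR-1246 it was 0.952%, 1.26% and 0.908% in S-EVs, against 1.17%, 1.37% and 1.66% in N-EVs. Both sets of shares were lowest in S-EV C, the library with the most bta-miR-1246.

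None of the 4 tested members was called between temperatures. A call needed an adjusted p under 0.05 (Benjamini-Hochberg over the 251 miRNAs) and a change of at least 2-fold, and limma on log2(CPM + 10) called 2.39% of the tested miRNAs, 6 of 251. On the recovered reads, edgeR called 4.38% and DESeq2 called 7.17%, and neither called a member. At an unadjusted p under 0.05 limma on the deposited scale had 44 of the 251 miRNAs and 0 of the 4 members. The members nevertheless differed widely in how steady they were over the 6 libraries. bta-miR-191 and bta-miR-423-3p were among the steadiest 25% of the tested miRNAs. bta-miR-423-5p and bta-miR-425-5p were near the middle of the 251, each with a highest library over 5-fold above its lowest (5.01-fold and 5.27-fold). Among the 126 miRNAs averaging 100 CPM or more, these 2 ranked 88 and 84 from the steadiest. With 50 CPM added before the log2 in place of 10, they ranked 219 and 205 of 251.

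**Figure D1:**
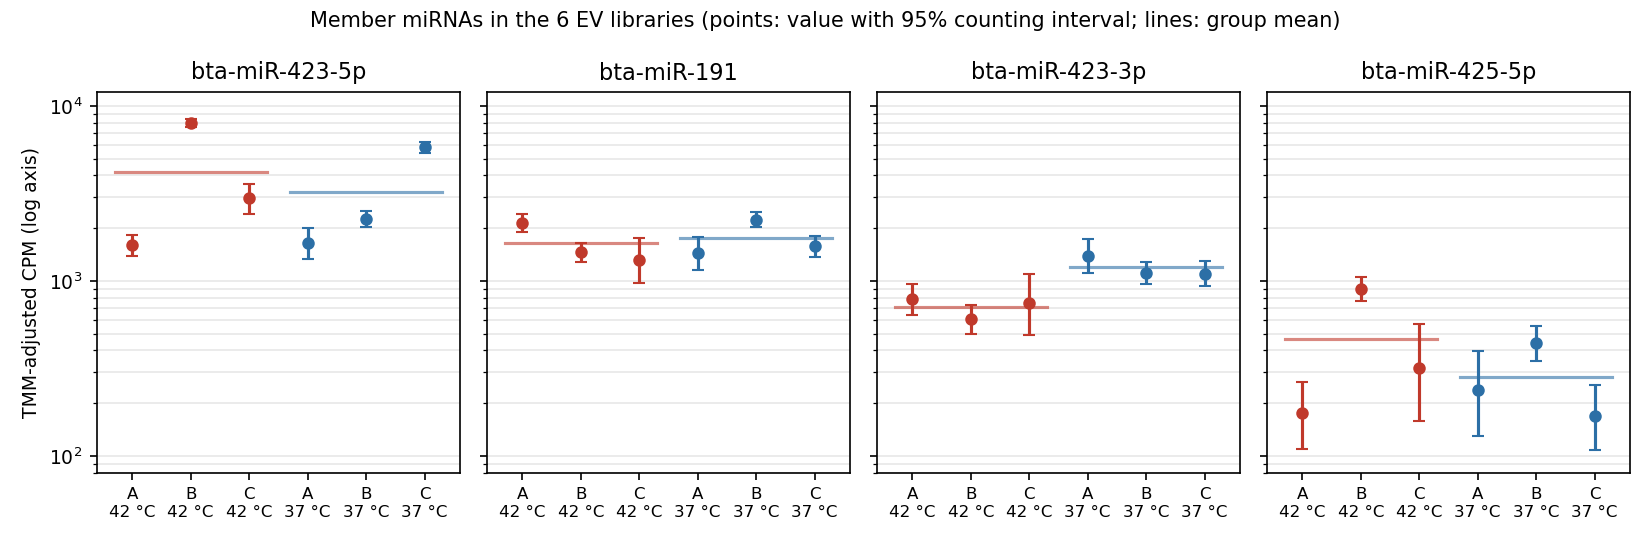
TMM-adjusted CPM (log axis) of the 4 tested members in each EV library, 42 °C libraries in red and 37 °C libraries in blue. Points are library values, bars their exact 95% Poisson counting intervals and horizontal lines the group means; bta-miR-423-3p is the member whose 42 °C libraries (603 to 787 CPM) all sit below its 37 °C libraries (1101 to 1395 CPM).

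bta-miR-191, the cluster product most used as a normaliser, stood at 2138, 1455 and 1321 CPM in S-EVs A, B and C, against 1446, 2238 and 1574 CPM in N-EVs A, B and C. The groups overlapped throughout, with the highest library of each at a similar level. It averaged 1638 ± 438 CPM in S-EVs and 1752 ± 425 CPM in N-EVs (SD, n = 3 each). The log2 difference was -0.10 (SE 0.40, 95% interval -0.97 to 0.77, limma adjusted p = 0.94), an interval that still holds a fall or a rise of over 1.5-fold. The 6 values rested on 46 to 381 reads, 1257 in all, and the library with 46 reads was S-EV C. Its coefficient of variation (CV, the SD as a percentage of the mean) over the 6 libraries was 23.1%, where counting error alone would give 8.98%, and its highest library was 1.69 times its lowest.

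Measured as the SD of log2(CPM + 10) over the 6 libraries, bta-miR-191 had 0.32 and ranked 9 among the 251 tested miRNAs from the steadiest. The median of the tested miRNAs was 0.95, and that of the 126 averaging 100 CPM or more was 0.72. With each library left out in turn, its rank stayed between 5 and 15. A steadier value is easier to reach for an abundant miRNA, so each member was also set beside miRNAs within 2-fold of its own mean. Of 30 such miRNAs, 2 were steadier than bta-miR-191, and their median SD was 0.58.

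bta-miR-191b, annotated at the overlapping MIR191B gene, had 0 reads in all 6 libraries. The table gives no bta-miR-191 by arm.

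bta-miR-425-5p, the major arm of the neighbouring hairpin, was the least abundant of the 4. It stood at 175, 896 and 316 CPM in S-EVs A, B and C, against 238, 441 and 170 CPM in N-EVs A, B and C. S-EV B stood apart above the other 5 libraries, and the groups overlapped. It averaged 462 ± 382 CPM in S-EVs and 283 ± 141 CPM in N-EVs (SD, n = 3 each), a log2 difference of 0.48 (SE 0.64, 95% interval -0.90 to 1.86, limma adjusted p = 0.74). Without S-EV B the difference was -0.15.

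Only 307 reads of bta-miR-425-5p were recovered over the 6 libraries, between 11 in S-EV C and 162 in S-EV B. The 11 reads of S-EV C allow 158 to 565 CPM by counting error alone. Its CV was 74.0%, where counting error would give 21.2%, and 42.3% without S-EV B. The SD of log2(CPM + 10) was 0.89, rank 111 of 251, or rank 57 without S-EV B. Of 42 miRNAs within 2-fold of its mean, 24 were steadier.

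The other arm, bta-miR-425-3p, had 0 reads in every library. A count of 0 allows up to 3 reads, which is 23.8, 16.6 and 86.2 CPM in S-EVs A, B and C and 51.0, 17.6 and 22.2 CPM in N-EVs A, B and C. Over all libraries together, the 307 reads of bta-miR-425-5p were 102-fold above the limit of 3 reads for bta-miR-425-3p. This figure leaves out the counting error of the 307 reads. A temperature difference of bta-miR-425-3p was not detectable at this depth, and the ratio of the miR-425 arms was not tested.

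bta-miR-423-5p was the most abundant member on average, and the one whose libraries were furthest apart in CPM. It stood at 1598, 8006 and 2958 CPM in S-EVs A, B and C, against 1650, 2256 and 5785 CPM in N-EVs A, B and C. Each group had 1 high library, S-EV B and N-EV C, and the groups overlapped. It averaged 4187 ± 3376 CPM in S-EVs and 3230 ± 2233 CPM in N-EVs (SD, n = 3 each). The log2 difference was 0.27 (SE 0.61, 95% interval -1.04 to 1.58, limma adjusted p = 0.86), and it was -0.35 without S-EV B and -0.10 without N-EV A.

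With 97 to 1447 reads per library and 3015 in all, bta-miR-423-5p was the best sampled member. Its CV of 70.5% was 10.0 times the 7.02% that counting error would give, the largest such ratio of the 4, against 3.48 for bta-miR-425-5p, 2.63 for bta-miR-423-3p and 2.57 for bta-miR-191. The SD of log2(CPM + 10) was 0.96, rank 128 of 251, and the rank was 91 to 171 with each library left out in turn. Of 22 miRNAs within 2-fold of its mean, 16 were steadier, and their median SD was 0.71.

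bta-miR-423-3p, the other arm of the same hairpin, stood at 787, 603 and 747 CPM in S-EVs A, B and C, against 1395, 1110 and 1101 CPM in N-EVs A, B and C. All 3 S-EV libraries were below all 3 N-EV libraries. Groups that do not overlap, in either direction, were found for 24.3% of the tested miRNAs (61 of 251, 36 of them lower at 42 °C), and for 1 of the 4 members.

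bta-miR-423-3p averaged 712 ± 96.6 CPM in S-EVs and 1202 ± 167 CPM in N-EVs (SD, n = 3 each), so the S-EV mean was 59.3% of the N-EV mean. The log2 difference was -0.75 (SE 0.40, 95% interval -1.61 to 0.11). It did not pass the test (limma, unadjusted p = 0.083, adjusted p = 0.35). Over the 16 alternative analyses the log2 difference lay between -1.42 and -0.63, with adjusted p between 0.22 and 0.68 over limma, edgeR and DESeq2. Its sign stayed negative, but most of these analyses could not change it. Groups that do not overlap keep their order with any library left out, and filter, block and trend leave the difference as it was. In reads per 1000000 miRNA reads, bta-miR-423-3p stood at 954, 510 and 358 in S-EVs A, B and C, against 2592, 1258 and 1064 in N-EVs A, B and C. On that scale the log2 difference was -1.42 (limma, unadjusted p = 0.032, adjusted p = 0.22), while the median of all tested miRNAs was itself -0.57. With bta-miR-1246 left out of the sum it was -1.23 (limma, unadjusted p = 0.030, adjusted p = 0.22), beside a median of -0.43.

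Within each group bta-miR-423-3p was steady, with an SD of log2(CPM + 10) of 0.20 in S-EVs and 0.19 in N-EVs. Over all 6 libraries, the difference between temperatures included, the SD was 0.45, rank 21 of 251, and the CV was 30.8%. Of 37 miRNAs within 2-fold of its mean, 6 were steadier. It rested on 26 to 189 reads per library, 654 in all.

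**Figure D2:**
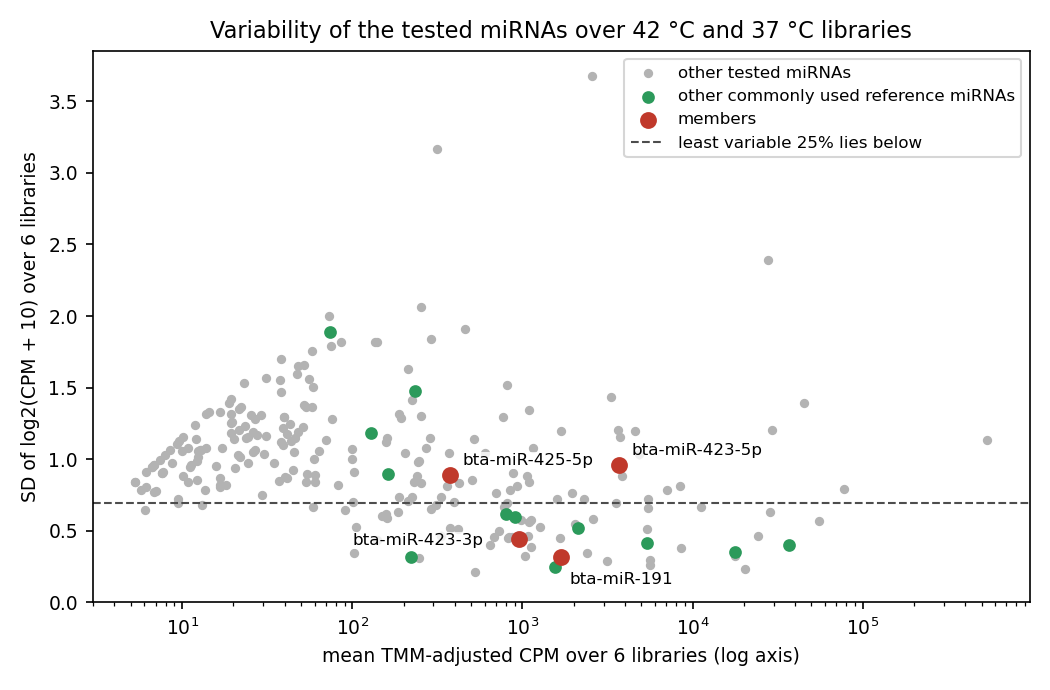
SD of log2(CPM + 10) over the 6 libraries against the mean TMM-adjusted CPM (log axis) of the 251 tested miRNAs in grey, with the 12 other commonly used reference miRNAs in green and the members in red; the dashed line bounds the least variable 25%. bta-miR-191 (0.32) and bta-miR-423-3p (0.45) lie below the line, bta-miR-425-5p (0.89) and bta-miR-423-5p (0.96) above it.

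The mean levels ran from bta-miR-423-5p (3709 CPM, rank 27 of the tested miRNAs) through bta-miR-191 (1695 CPM, rank 39) and bta-miR-423-3p (957 CPM, rank 56) to bta-miR-425-5p (373 CPM, rank 82). CPM carries no length term, which matters little among mature miRNAs, but adapters join each miRNA with its own efficiency, so the order is one of reads. Neighbours in it were compared within libraries by exact two-sided sign-flip tests over the 6 libraries, whose smallest p is 0.03125, adjusted over 3 pairs. bta-miR-423-5p was above bta-miR-191 in 5 of 6 libraries, by 0.88 ± 1.14 on the log2 scale (exact p = 0.15625, adjusted 0.15625). bta-miR-191 was above bta-miR-423-3p in 6 of 6, by 0.85 ± 0.51 (exact p = 0.03125, adjusted 0.09375). bta-miR-423-3p was above bta-miR-425-5p in 5 of 6, by 1.55 ± 1.199 (exact p = 0.0625, adjusted 0.09375). No neighbouring pair passed the adjusted threshold.

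A ratio of a pair of members does not depend on how a library was scaled. For the miR-423 hairpin, reads of 5p per read of 3p were 2.03, 13.3 and 3.96 in S-EVs A, B and C, against 1.18, 2.03 and 5.26 in N-EVs A, B and C. The 5p arm thus took 67.0% (Wilson 95% interval 61.5 to 72.1), 93.0% (91.6 to 94.2) and 79.8% (72.1 to 85.9) of the hairpin's reads in S-EVs, against 54.2% (46.9 to 61.3), 67.0% (63.1 to 70.7) and 84.0% (81.5 to 86.2) in N-EVs. The 5p arm led in all 6 libraries, though in N-EV A its interval included an equal share. The intervals of libraries within each group did not all overlap, so the arms' balance differed between libraries of one temperature by more than counting error.

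The mean log2 arm ratio was 2.24 ± 1.37 in S-EVs and 1.22 ± 1.09 in N-EVs (SD, n = 3 each). The difference of 1.02 did not pass an exact two-sided permutation test (p = 0.5, adjusted over 2 ratios 0.6), in which 3 libraries against 3 cannot go below 0.1. It was 0.27 without S-EV B and 1.63 without S-EV A. Only 3 hairpins of the table had at least 3 reads of each arm in every library, namely miR-126, miR-199a and miR-423. The ratio of arms ranged 2.94-fold over the 6 libraries for miR-126, 6.74-fold for miR-199a and 11.2-fold for miR-423, where S-EV B set the upper end. The SDs of the log2 ratio were 0.66, 1.22 and 1.24 in the same order, so miR-199a and miR-423 were close by that measure.

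**Figure D3:**
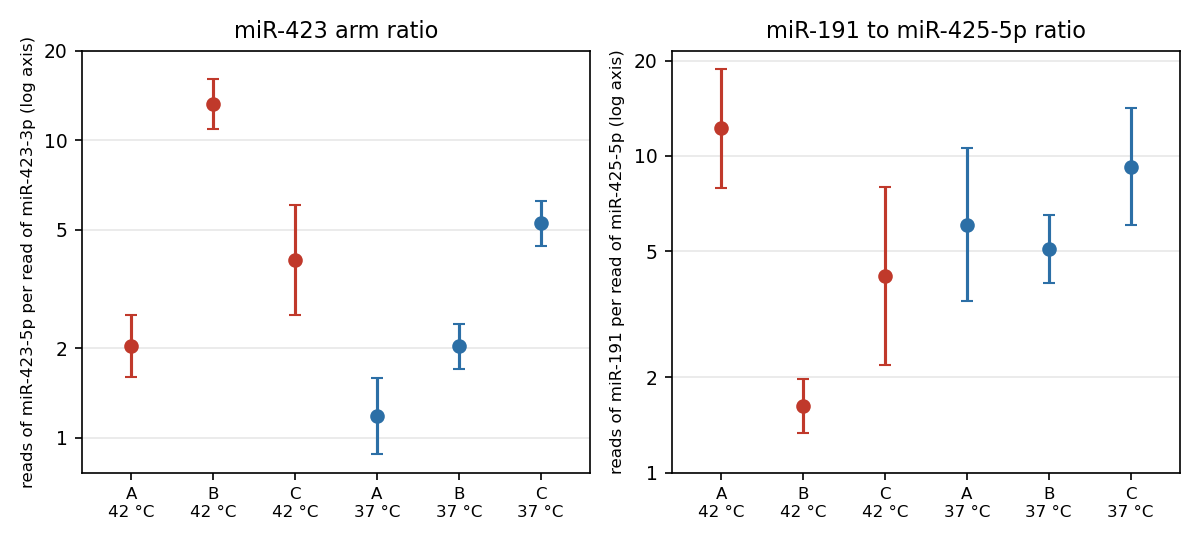
Reads of bta-miR-423-5p per read of bta-miR-423-3p (left) and of bta-miR-191 per read of bta-miR-425-5p (right) in each library on log axes, with 42 °C libraries in red and 37 °C libraries in blue. Bars are 95% Wilson counting intervals; S-EV B has the highest arm ratio (13.3) and the lowest cluster ratio (1.62), and the groups overlap in both plots.

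For the cluster, reads of bta-miR-191 per read of bta-miR-425-5p were 12.2, 1.62 and 4.18 in S-EVs A, B and C, against 6.07, 5.08 and 9.26 in N-EVs A, B and C. bta-miR-191 led in all 6 libraries. The S-EV libraries spanned the wider range, with both the highest and the lowest ratio among them. The mean log2 ratio was 2.10 ± 1.44 in S-EVs and 2.69 ± 0.44 in N-EVs (SD, n = 3 each), a difference of -0.60 (exact two-sided permutation p = 0.6, adjusted 0.6). Without S-EV B the difference was 0.11.

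Of the 6 ratios that the 4 members allow, that of bta-miR-191 to bta-miR-423-3p varied least, with an SD of 0.51 on the log2 scale over the 6 libraries. The other 5 ratios had SDs between 0.93 (bta-miR-425-5p to bta-miR-423-5p) and 1.24 (bta-miR-423-5p to bta-miR-423-3p). Over the 6 libraries, the products of one hairpin were therefore the pair that varied most against each other, and the steadiest pair came from different genes. The place of the miR-423 arms in this order leans on S-EV B. Its arm ratio was 13.3, where the next highest was 5.26 in N-EV C. Without S-EV B the arm ratio ran only from 1.18 in N-EV A to 5.26 in N-EV C. The log2 ratio of bta-miR-425-5p to bta-miR-423-5p ran from -5.06 in N-EV C to -2.35 in N-EV B. That wider range of 2.71 did not involve S-EV B, so by range the arms were not the most variable pair without it. Pearson correlations between members over the 6 libraries lay between -0.52 (bta-miR-425-5p with bta-miR-423-3p) and 0.51 (bta-miR-425-5p with bta-miR-423-5p). All of them share the libraries' depth and scaling, and S-EV B weighs on them.

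How steady the members appeared depended on the scaling. In reads per 1000000 miRNA reads, bta-miR-191 stood at 2591, 1230 and 634 in S-EVs A, B and C, against 2686, 2536 and 1521 in N-EVs A, B and C. Its log2 difference between temperatures was then -0.78 (limma adjusted p = 0.60), beside a median of -0.57 for all tested miRNAs. Its SD of log2 was then 0.82 and its rank 62 of 259, and the other members had SDs of 0.87 to 0.99. The lowest value, 634, belonged to S-EV C, where bta-miR-1246 took 71.8% of the reads. With bta-miR-1246 left out of the sum, the SDs were 0.59 for bta-miR-191, 0.69 for bta-miR-423-5p, 0.70 for bta-miR-425-5p and 0.81 for bta-miR-423-3p, and all 4 were in the least variable 25% of 290 tested miRNAs. bta-miR-191 had the lowest SD of the 4 on each of the 3 scales, while bta-miR-423-3p had the highest on both sum scales. The sign of the temperature difference of bta-miR-423-5p was negative on both sum scales (-0.41, and -0.21 without bta-miR-1246), while that of bta-miR-425-5p was -0.18 and 0.011.

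**Figure D4:**
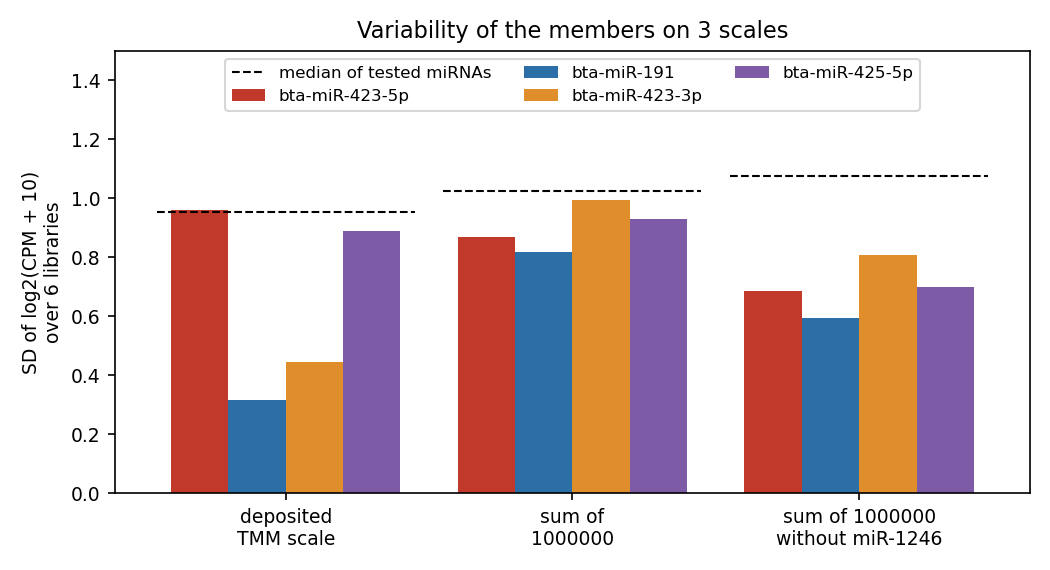
SD of log2(CPM + 10) over the 6 libraries for the 4 tested members on the deposited TMM scale (left), on a scale where every library sums to 1000000 (middle), and on that scale with bta-miR-1246 left out (right). Dashed lines are the medians of all tested miRNAs on each scale; bta-miR-191 has the shortest bar in each set, 0.32, 0.82 and 0.59.

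Since these miRNAs serve as normalisers, every library was also rescaled to them and the limma comparison repeated over the table. Scaled to the geometric mean of the 4 members, 6 of 264 tested miRNAs were called, and these were the same 6 as on the deposited scale. Scaled to bta-miR-191 alone, 5 of 259 were called, all 5 of them among those 6. Scaled to bta-miR-423-3p alone, 15 of 261 were called, 14 of them higher at 42 °C, and the median log2 difference of all tested miRNAs was 0.61. Scaled to bta-miR-423-5p alone, 2 of 266 were called. Scaled to bta-miR-425-5p alone, limma called 0 of 251, with 29 at an unadjusted p under 0.05. The rescaling to single members was chosen after seeing the data, and no other tool was run on the rescaled values.

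A list of 12 other miRNAs commonly used as references gave the members a frame. All 12 were tested, 0 were called by limma, and 8 were in the least variable 25%, where the members had 2 of 4. Their median SD of log2(CPM + 10) was 0.56 and their median log2 difference was 0.089, beside -0.012 for all tested miRNAs. The steadiest were bta-miR-24-3p (SD 0.25, rank 3, 1401 ± 256 CPM in S-EVs and 1702 ± 109 CPM in N-EVs) and bta-miR-93 (rank 8, 184 ± 28.4 CPM in S-EVs and 256 ± 38.1 CPM in N-EVs). These were the only 2 of the list with a lower SD than bta-miR-191. The least steady were bta-miR-361 (SD 1.89, rank 245) and bta-miR-16a (SD 1.47, rank 227), of which bta-miR-16a averaged 407 ± 220 CPM in S-EVs and 61.9 ± 24.8 CPM in N-EVs (log2 difference 2.48, limma adjusted p = 0.051). By its own test, the study listed bta-miR-16a among the miRNAs higher in S-EVs.

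Among the 122 other miRNAs averaging 100 CPM or more, those whose log2 values most resembled the mean profile of the 4 members over the 6 libraries were bta-miR-486 (Pearson r = 0.92), bta-miR-148a (r = 0.91) and bta-miR-451 (r = 0.90). bta-miR-486 and bta-miR-451 are abundant in red blood cells, and bta-miR-148a is abundant in milk and liver. bta-miR-451 stood at 13672, 159915 and 17777 CPM in S-EVs A, B and C, against 12415, 22993 and 42941 CPM in N-EVs A, B and C. bta-miR-486 stood at 1741, 14374 and 2326 CPM in S-EVs A, B and C, against 1463, 3037 and 4618 CPM in N-EVs A, B and C. In both, S-EV B and N-EV C were the highest libraries of their groups, as for bta-miR-423-5p.

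This likeness was not shared by all members. With bta-miR-451, r was 0.93 for bta-miR-423-5p, 0.71 for bta-miR-425-5p, -0.26 for bta-miR-191 and -0.55 for bta-miR-423-3p. With bta-miR-486, the values were 0.93, 0.72, -0.22 and -0.57 in the same order of members. Each r is over 6 libraries that share depth and scaling, S-EV B weighs on all of them, and they are given as descriptions.

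Marker miRNAs of other cell types were checked beside these values. The erythroid list (3 of 3 detected: bta-miR-451, bta-miR-486 and bta-miR-144) summed to 15412, 174301 and 20103 CPM in S-EVs A, B and C, against 13912, 26059 and 47558 CPM in N-EVs A, B and C. bta-miR-122, the defining miRNA of liver, stood at 8926, 96614 and 13038 CPM in S-EVs A, B and C, against 16293, 15632 and 25393 CPM in N-EVs A, B and C. Both were thus highest in the libraries where bta-miR-423-5p was highest within its group, and their part in its spread was not tested.

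The epithelial list (7 of 8 in the table, all 7 with reads) summed to 13152 to 26469 CPM in S-EVs and 12483 to 20273 CPM in N-EVs, so markers of the labelled source were present throughout. S-EV A and N-EV B were the highest libraries of their groups both for the epithelial sum and for bta-miR-191. The leukocyte list (5 of 5 detected) summed to 4006 to 11516 CPM in S-EVs and 1167 to 1557 CPM in N-EVs. The stromal and smooth muscle list (2 of 2) summed to 3601 to 11602 CPM in S-EVs and 1674 to 5765 CPM in N-EVs, and the endothelial list (2 of 2) to 1256 to 8000 CPM in S-EVs and 2884 to 4541 CPM in N-EVs. No detected marker list was at 0 in any library. Of these lists, only the leukocyte sums separated the groups as bta-miR-423-3p did, in the opposite direction, and their part in its difference was not tested. The rise was uneven within that list. By limma, bta-miR-150 had a log2 difference of 6.50 (adjusted p = 4.87e-05) and bta-miR-223 of 3.11 (adjusted p = 0.051). bta-miR-142-5p had 0.57 (adjusted p = 0.66) and bta-miR-155 had 0.30 (adjusted p = 0.75).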

How the data were processed

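Small RNA libraries of EVs from bovine oviductal organoids, 3 at 42 °C and 3 at 37 °C, were analysed. In CLC Genomics Workbench, the authors matched trimmed reads to bovine miRBase entries, and they deposited 1 table of TMM-adjusted CPM, a signal of 0 or above. bcl2fastq, DESeq2, Bowtie2 2.2.2 and the build ARS-UCD1.2 are listed, without roles, in the submitters' processing notes.

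Reads were recovered from the deposited signal, since 100% of the values above 0 in each library were whole multiples of the smallest one (within 0.01). Intervals and the limit of 3 reads for a count of 0 cover counting error only. In R 4.3.3, log2(CPM + 10) at both temperatures was compared by limma 3.58.1 (intensity trend, no block) over 251 miRNAs with a group mean of at least 10 CPM, with edgeR 4.0.16 and DESeq2 1.42.0 on recovered reads as alternatives. Fold changes on this scale understate those of low miRNAs. Ratios of reads used 0.5 added reads and exact permutation tests.

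The members, the reference and marker lists and the tests were chosen with earlier results of these data known. Other miRNAs were named by rule: the 2 least and 2 most variable of the reference list, and the 3 most like the members' mean profile. Alternatives covered pseudocount, filter, scaling, block, trend, test and each library left out. Gene neighbours came from RefSeq (ARS-UCD2.0, names only). The organoid mRNA and RT-qPCR were not analysed here.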

Additional observations from a re-analysis of the deposited data

How the results depend on the processing

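No member was called under any of the 16 alternatives. The count of called miRNAs was 6 of 251 on the deposited scale and 10 of 135 with a group mean of at least 100 CPM. It was 20 of 259 where every library summed to 1000000, and 15 of 290 with that sum taken without bta-miR-1246. Of 251, it was 10 without the intensity trend, 11 with edgeR and 18 with DESeq2. With the scaling to bta-miR-423-5p, bta-miR-423-3p or bta-miR-425-5p alone, chosen after seeing the data, it was 2 of 266, 15 of 261 and 0 of 251. With each library left out in turn it lay between 1 of 248 (without N-EV B) and 9 of 255 (without S-EV A), and was 3 of 251 without N-EV C. Both temperatures drew on the same oviducts, but no source used here says that a letter marks the same pool, and libraries of the same letter were not seen to deviate together (correlations of -0.062, 0.035 and -0.060), so they were not treated as pairs. With the replicate block 15 of 251 miRNAs and no member were called. Pairing cannot change the arm ratio's difference of 1.02, and its exact paired permutation p was 0.5, where 0.25 is the smallest possible.

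The log2 differences of 3 members changed sign. For bta-miR-425-5p it was -0.18 with the sum of 1000000 and -0.15 to 1.00 with a library left out. For bta-miR-423-5p it was -0.41 with that sum, -0.21 without bta-miR-1246 in it and -0.35 to 0.80 with a library left out. For bta-miR-191 it was -0.78 with that sum, -0.58 without bta-miR-1246 in it and -0.31 to 0.086 with a library left out. The difference between temperatures in the log2 ratio of bta-miR-191 to bta-miR-425-5p was -1.34 to 0.11 with a library left out. The members in the least variable 25% numbered 2 on the deposited scale, 1 with the sum of 1000000, 4 without bta-miR-1246 in it, 1 with a pseudocount of 50 and 2 to 3 with a library left out. The cause of these changes was not tested. bta-miR-425-3p had no reads, and among the 4 tested members depth limits bta-miR-425-5p most, which had 11 to 23 reads in 4 of the 6 libraries.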
